A study of Homo sapiens with 8 samples.

Results

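The autophagy genes described here are 40 protein-coding genes of the 60230 genes in the deposited count table. They were taken by matching gene symbols to Ensembl identifiers, by a rule that uses no measured value, although the list was drawn up with earlier results of these data known. They cover the ULK complex (5 genes), the class III PI3K complex (6), membrane supply and effectors of the lipid PI3P (8), the conjugation machinery (10), the ATG8 family (4), the cargo receptors (5), and fusion with the lysosome (2). Of the 40, 39 had enough counts to be tested among 13404 genes. The exception was ULK2, which was listed at 0 counts in all 8 samples. Whether this 0 reflects the cells or the making of the table cannot be told apart. If the reads were counted as for other genes, a count of 0 allows up to 0.234 to 0.313 CPM (counts per 1000000 counts of the library), counting error only.

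Macroautophagy encloses cytoplasmic material in a double membrane, the autophagosome, and delivers it to the lysosome for degradation. The ULK kinase complex, which is held inactive by mTORC1 in fed cells, starts the process, and the class III PI3K complex then marks the growing membrane with PI3P. WIPI proteins bind this lipid, ATG2 and ATG9 supply lipids, and a pair of ubiquitin-like conjugation systems couples ATG8 proteins such as LC3 to the membrane, where cargo receptors bind them. In hepatocytes, autophagy is known for the turnover of organelles, lipid droplets, and protein aggregates. The level of an mRNA does not measure the flux of material through this route, which also depends on protein and lysosomal activity.

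The cells were HepG2, an established human hepatocellular carcinoma line, in a derivative that overexpresses the drug-metabolizing enzyme CYP3A4 and that was kept under blasticidin. Control cells received 0.2% DMSO, and the other groups received compound 4, 5, or 6, each at its own IC50, for 24 h. The concentrations of the 3 compounds were thus not matched, and the study took these IC50 values from a cytotoxicity assay of longer exposure than that of the sequenced cells. All 3 are bisphenol-type plastic additives: compounds 4 and 6 share a methylene bridge between methyl-bearing phenol rings and differ in a tert-butyl (compound 4) or cyclohexyl group (compound 6), whereas compound 5 has an ethylidene bridge and tert-butyl groups in place of the methyl groups. Each of the 4 groups had 2 replicates. The sample labels give them as day 1 and day 2 in every group, and the column names mark replicate 1 of compounds 4 and 5 as merged from a pair of the S numbers that the columns carry, without saying what these number. As the study's methods give a single exposure of 24 h, whether the day is a time of treatment or a day of the experiment is unclear, and it was used as a replicate number. No source used here states that they were separate cultures, so that p-values measure the spread between these samples.

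The 8 libraries held between 9472261 and 13308975 counts. Mitochondrial transcripts made up 4.91% and 5.12% of the counts in DMSO and 5.31% to 6.21% in the treated libraries, all above DMSO. All 9 hepatocyte markers were detected in every library, with a summed level of 39541 and 41353 CPM in DMSO and of 30902 to 37853 CPM with the compounds. Of 5 fibroblast markers, COL1A2, DCN, and LUM were at 0 in all samples and the list summed to at most 0.171 CPM, while the endothelial list summed to 0.864 to 2.06 CPM with KDR at 0. Among leukocyte markers, PTPRC, CD3E, and MS4A1 were at 0, and LYZ lay between 1854 and 2993 CPM and fell with compound 5 (log2 fold change -0.47, adjusted p = 0.0315). CD14 lay at 0.0985 and 0.164 CPM in DMSO, under the level of 3 counts, and at 0.458 to 1.25 CPM in the treated libraries, all above DMSO (adjusted p = 0.0162, 0.0705, and 0.0476 with compounds 4, 5, and 6, the last 0.0568 under the replicate block). The hepatocyte sum was lower in each treated library than in both DMSO libraries, but its genes did not move as 1. AFP, APOA1, and TF fell with compounds 4 and 5, and APOA1 and TF with compound 6 (log2 fold changes -0.74 and -0.55, adjusted p = 0.0375 and 0.0359, under the replicate block 0.0576 and 0.0547), while TTR rose with compound 4 (log2 fold change 0.66, adjusted p = 0.0365) and HNF4A stayed between 320 and 406 CPM. The part of the mitochondrial share, CD14, LYZ, and the hepatocyte genes in the results was not tested. In compound 6 the hepatocyte sum was 37853 CPM in replicate 1 and 31481 CPM in replicate 2. Fewer cells of a kind and less RNA per cell cannot be told apart in such bulk samples.

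With compound 5, 22 of the 39 tested genes rose and 1 fell, compared with 28.1% of all tested genes called in either direction, 13.9% called higher, and 14.2% called lower (edgeR adjusted p under 0.05). With compound 4, 10 rose and 0 fell, where 11.9% of all tested genes were called, 6.50% higher and 5.42% lower. With compound 6, 5 rose and 0 fell, where 4.40% of all tested genes were called, 2.80% higher and 1.60% lower. The median log2 fold change of the 39 genes came to 0.20, 0.45, and 0.16 for compounds 4, 5, and 6, beside 0.00, -0.03, and 0.00 over all tested genes. As fold changes, these medians were 1.15, 1.37, and 1.11 with compounds 4, 5, and 6. Taken from log2 CPM against the DMSO mean, replicates 1 and 2 gave medians of 0.21 and 0.20 with compound 4. They gave 0.42 and 0.41 with compound 5, and 0.10 and 0.23 with compound 6. All 3 comparisons used the same DMSO libraries.

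With 1 library left out, the counts of calls changed among the autophagy genes and among all tested genes. With compound 4, leaving out DMSO replicate 1 or 2 left 4 or 2 called genes, and 663 or 335 of 1598 over all tested genes. With compound 5, leaving out any 1 of the 4 libraries left 12 to 14, the lowest without DMSO replicate 1 or compound 5 replicate 1, and 14 without DMSO replicate 2 or compound 5 replicate 2, while the calls over all genes went from 3763 to between 1680 and 2139. With compound 6, 2 were called without DMSO replicate 1, 0 without DMSO replicate 2, 8 without compound 6 replicate 1, and 1 without compound 6 replicate 2, where the calls over all genes were 90, 1, 1001, and 49 in place of 590. For compound 5 the scaling mattered as well: with library size alone, the median of all genes moved to -0.14, the share of calls that were higher fell from 49.3% to 33.3%, and 17 autophagy genes were called higher, and with upper-quartile scaling these values were -0.12, 36.6%, and 20.

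**Figure D1:**
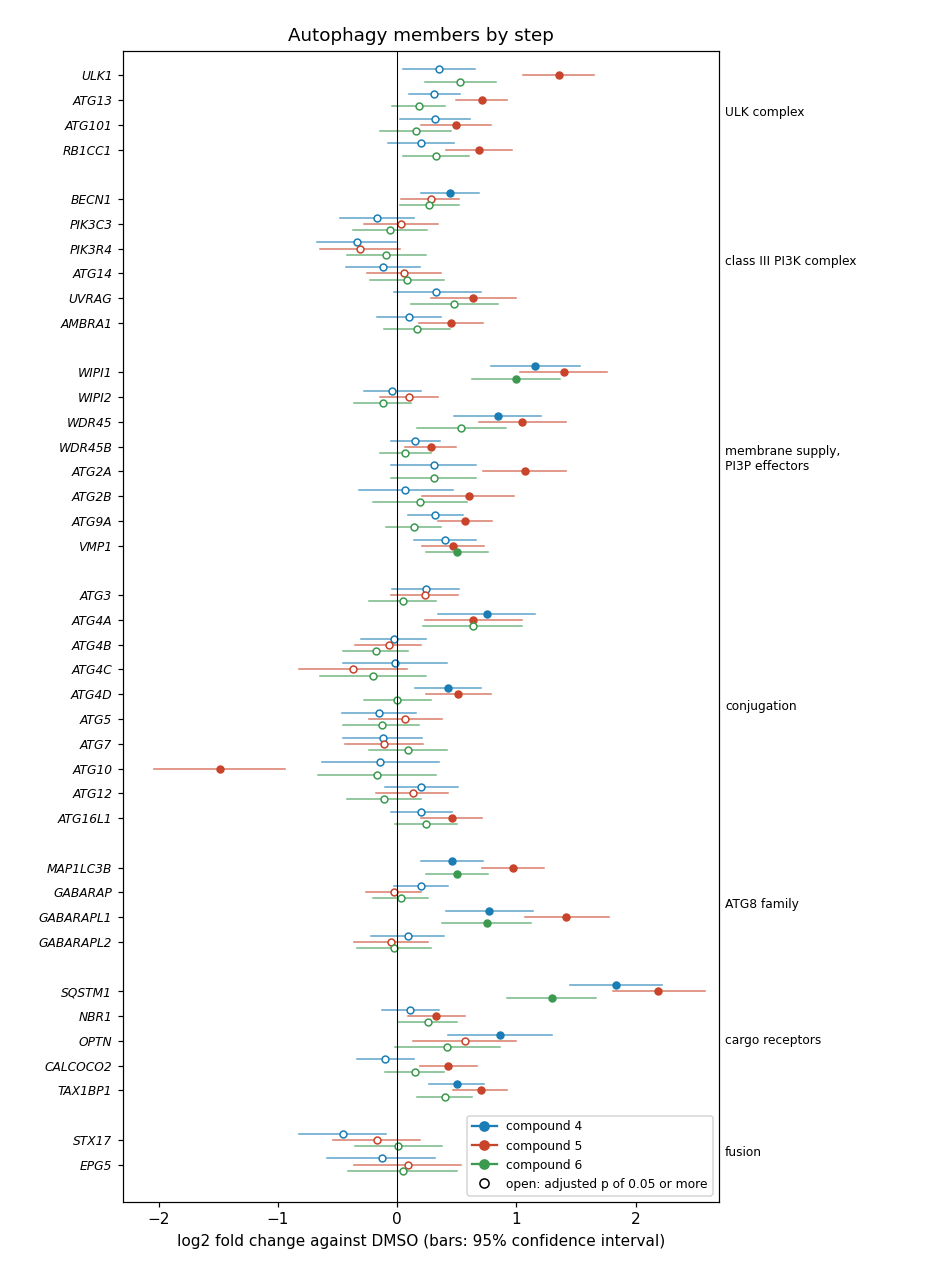
Log2 fold change of each of the 39 tested autophagy genes against DMSO, grouped by step, for compounds 4 (blue), 5 (red), and 6 (green). Points are edgeR estimates, bars are 95% confidence intervals, and filled points have an adjusted p under 0.05. Compound 5 has 23 filled points, of which ATG10 is the only one below 0.

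By step, compound 5 raised 4 of 4 tested genes of the ULK complex, 2 of 6 of the PI3K complex, 7 of 8 of membrane supply, 3 of 10 of conjugation, 2 of 4 of the ATG8 family, 4 of 5 receptors, and 0 of 2 fusion genes. Compound 4 raised 0, 1, 2, 2, 2, 3, and 0 genes of the same steps, and compound 6 raised 0, 0, 2, 0, 2, 1, and 0. Across the 3 comparisons, 14 of the 39 genes were called in none, 16 in 1, 5 in 2, and 4 in all 3, beside 9149, 3011, 792, and 452 of the 13404 tested genes. The 4 called with every compound were SQSTM1, WIPI1, MAP1LC3B, and GABARAPL1, and each rose with each. Another 14 of the 39 were called with compound 5 alone, beside 2575 of all 13404, although a missing call with another compound is not itself a difference, which is tested further on.

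**Figure D2:**
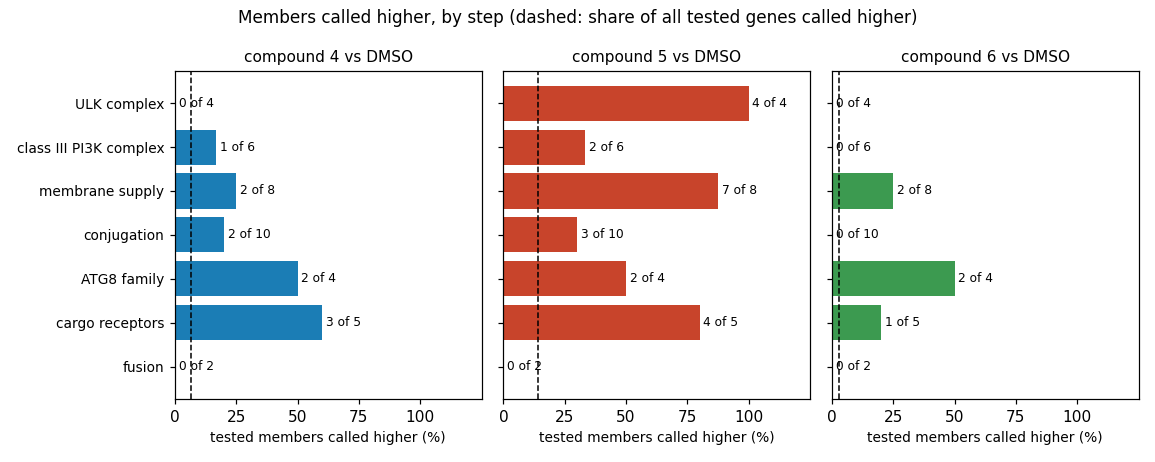
Percentage of the tested autophagy genes of each step that were called higher (edgeR adjusted p under 0.05), with the count beside each bar and 1 panel per compound. The dashed line is the share of all 13404 tested genes called higher, at 6.50% for compound 4, 13.9% for compound 5, and 2.80% for compound 6. With compound 5 the bar of the ULK complex reaches 4 of 4 and that of membrane supply 7 of 8.

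The promoters of SQSTM1, GABARAPL1, and WIPI1 are shown because these were the 3 genes with the largest called rises. Each is the 250 bases before a RefSeq start on GRCh38.p14, written 5′ to 3′ on the strand of the gene, with matches to the searched motifs in capitals. SQSTM1 lies on the plus strand at chr5:179820655-179820904 (1 of 3 listed starts), GABARAPL1 on the plus strand at chr12:10212627-10212876, and WIPI1 on the minus strand at chr17:68457497-68457746.
SQSTM1: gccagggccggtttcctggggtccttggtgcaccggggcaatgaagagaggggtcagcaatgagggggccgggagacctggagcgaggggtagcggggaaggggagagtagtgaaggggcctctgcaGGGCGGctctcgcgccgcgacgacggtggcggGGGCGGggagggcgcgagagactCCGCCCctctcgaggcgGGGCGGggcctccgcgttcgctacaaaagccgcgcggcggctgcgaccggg
GABARAPL1: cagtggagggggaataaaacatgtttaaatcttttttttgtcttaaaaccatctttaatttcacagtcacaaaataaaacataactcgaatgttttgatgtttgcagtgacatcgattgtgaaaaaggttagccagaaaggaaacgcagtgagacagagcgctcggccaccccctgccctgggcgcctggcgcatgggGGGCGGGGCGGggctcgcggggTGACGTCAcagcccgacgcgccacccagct
WIPI1: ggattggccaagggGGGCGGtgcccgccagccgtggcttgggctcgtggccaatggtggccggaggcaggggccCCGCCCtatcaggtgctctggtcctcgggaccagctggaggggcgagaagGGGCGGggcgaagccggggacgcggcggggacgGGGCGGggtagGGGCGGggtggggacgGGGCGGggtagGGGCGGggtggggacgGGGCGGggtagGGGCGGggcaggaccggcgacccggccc
The capitals mark GC boxes (GGGCGG on either strand), of which there were 4, 2, and 9, respectively, the 2 of GABARAPL1 overlapping by their last and first letter. In GABARAPL1 they also mark a cAMP response element (TGACGTCA), which began 30 bases before the start.

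RefSeq promoter windows of 300 bases, 250 before and 50 after a start, were found for 34 of the 40 genes, in 43 windows. A GC box was present in 28 of the 43 windows (65.1%) and in 45% of the 35116 windows of all genes. The E-box CACGTG, read by TFEB and related factors, occurred in 2 windows, of ATG14 and ATG3 (4.65% of the 43 windows, 7.26% of all). The longer CLEAR core TCACGTGA, which contains it, was found in the window of ATG3 (2.33% and 0.98%). The antioxidant response element core TGACNNNGC was found in ATG101, CALCOCO2, and MAP1LC3B (6.98% of the 43 windows, 13.3% of all). The AP-1 site TGACTCA (2.33% and 4.95%) and the C/EBP-ATF core TGATGNAA (2.33% and 3.62%) were each found in WDR45, and TGACGTCA (2.33% and 1.85%) in GABARAPL1. Both strands were searched. The GC box and TGACGTCA were added to the search after the printed windows had been read. None of these matches is a measured binding site, and a window without a match says nothing of the factor.

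All 4 tested genes of the ULK complex rose with compound 5. ULK1, the kinase that starts autophagosome formation (GRCh38 chr12:131894651-131923167, plus strand), had 24.1 and 24.0 CPM under DMSO, 32.7 and 28.5 under compound 4, 61.5 and 61.8 under compound 5, and 30.9 and 38.5 under compound 6. Both compound 5 samples lay above all others, and the samples of compounds 4 and 6 overlapped each other and lay above DMSO. ULK1 rose 2.56-fold with compound 5 (log2 fold change 1.36, SE 0.13, adjusted p = 1.34e-04), and its log2 fold changes of 0.35 and 0.53 with compounds 4 and 6 did not pass (adjusted p = 0.127 and 0.0542).

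ATG13, the adaptor that holds the complex together, had 94.4 and 90.4 CPM under DMSO, 111 and 118 under compound 4, 154 and 149 under compound 5, and 106 and 103 under compound 6. RB1CC1, the scaffold also known as FIP200, had 86.1 and 90.0 CPM under DMSO, 112 and 90.7 under compound 4, 146 and 138 under compound 5, and 102 and 118 under compound 6. In both genes the compound 5 samples were the highest, and they rose by log2 fold changes of 0.71 (SE 0.10, adjusted p = 6.92e-04) and 0.69 (SE 0.13, adjusted p = 0.00298). ATG101, which stabilizes ATG13, had 36.7 and 34.4 CPM under DMSO, 42.1 and 46.5 under compound 4, 47.5 and 52.5 under compound 5, and 35.0 and 44.0 under compound 6. It rose with compound 5 by 0.49 (SE 0.13, adjusted p = 0.0197). The calls of ULK1, ATG13, and RB1CC1 held with any 1 library left out, whereas that of ATG101 was lost in each of the 4 such fits, with an adjusted p of up to 0.128.

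In the class III PI3K complex, BECN1, UVRAG, and AMBRA1 were called in 1 comparison each, and the lipid kinase and its regulatory subunit in none. PIK3C3, the lipid kinase also known as VPS34, ranged from 27.3 to 37.1 CPM over the 8 samples with log2 fold changes of -0.17, 0.03, and -0.06 with compounds 4, 5, and 6. PIK3R4, its regulatory subunit, had log2 fold changes of -0.34, -0.31, and -0.09, and ATG14, which directs the complex to the site of autophagosome formation, had -0.12, 0.06, and 0.08. None of these passed (adjusted p of 0.137 or more).

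BECN1, the beclin 1 scaffold of the complex, had 62.7 and 57.2 CPM under DMSO, 80.5 and 82.4 under compound 4, 74.4 and 70.7 under compound 5, and 66.6 and 77.4 under compound 6. All treated samples lay above DMSO, with compound 4 the highest, and the rise with compound 4 passed (log2 fold change 0.44, SE 0.11, adjusted p = 0.0275), while values of 0.28 and 0.27 with compounds 5 and 6 did not (adjusted p = 0.0884 and 0.216). UVRAG, the alternative partner of beclin 1, had 11.2 and 14.5 CPM under DMSO, 18.0 and 14.6 under compound 4, 20.6 and 19.6 under compound 5, and 17.8 and 18.2 under compound 6. It rose with compound 5 by 0.64 (SE 0.16, adjusted p = 0.0147). AMBRA1, a regulator that links beclin 1 to ubiquitin ligases, had 60.6 and 62.5 CPM under DMSO, 70.4 and 61.7 under compound 4, 80.2 and 88.5 under compound 5, and 62.9 and 75.2 under compound 6, and rose with compound 5 by 0.45 (SE 0.12, adjusted p = 0.0194). These 3 calls did not hold with each library left out, although the log2 fold changes stayed within 0.38 to 0.51, 0.48 to 0.87, and 0.38 to 0.55. BECN1 kept its call only without compound 4 replicate 1, UVRAG only without DMSO replicate 2, and AMBRA1 in none of its 4 fits, with adjusted p-values of up to 0.228, 0.128, and 0.132.

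Membrane supply and PI3P effectors were the step with the most calls, 7 of 8 genes with compound 5. WIPI1, which binds PI3P (chr17:68420948-68457513, minus strand), had 36.0 and 24.3 CPM under DMSO, 71.7 and 62.6 under compound 4, 83.8 and 74.4 under compound 5, and 58.5 and 61.8 under compound 6. Every treated sample lay above both DMSO samples, which themselves lay apart. WIPI1 rose 2.23-fold, 2.63-fold, and 2.00-fold with compounds 4, 5, and 6 (log2 fold changes 1.16, 1.40, and 1.00, SE 0.17 each, adjusted p = 0.00200, 3.51e-04, and 0.0120). The call with compound 6 was lost without DMSO replicate 2 or compound 6 replicate 2 (adjusted p of up to 0.118).

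WIPI2, a relative of WIPI1, did not pass with any compound, with log2 fold changes of -0.04, 0.10, and -0.12. WDR45, also known as WIPI4, had 17.9 and 18.0 CPM under DMSO, 30.1 and 34.5 under compound 4, 36.4 and 38.2 under compound 5, and 21.5 and 30.4 under compound 6. Its treated samples all lay above DMSO, and it rose with compound 4 by 0.85 (SE 0.16, adjusted p = 0.00875) and with compound 5 by 1.05 (SE 0.16, adjusted p = 0.00128), whereas 0.54 with compound 6 did not pass (adjusted p = 0.0971). Without DMSO replicate 1 or 2 the call with compound 4 was lost (adjusted p of up to 0.0834). WDR45B, or WIPI3, had 107 and 110 CPM under DMSO, 122 and 119 under compound 4, 132 and 130 under compound 5, and 113 and 115 under compound 6. Its rise with compound 5 of 0.28 (SE 0.09, adjusted p = 0.0489) was lost with the replicate number as a block (adjusted p = 0.0591). It was also lost under upper-quartile scaling (0.19, adjusted p = 0.153), by library size alone (0.17, adjusted p = 0.187), and without a filter on low counts (0.31, adjusted p = 0.0831). In each of the 4 fits without 1 library the call was lost as well, with log2 fold changes from 0.26 to 0.32. WDR45 shares 18% of its 31-base words with other genes, mainly its neighbour PRAF2, which had 8 to 26 counts per library.

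Among the lipid transfer and scramblase proteins, ATG2A, ATG2B, and ATG9A were called with compound 5 and VMP1 with compounds 5 and 6. ATG2A, a lipid transfer protein (chr11:64894546-64917248, minus strand), had 27.9 and 29.3 CPM under DMSO, 38.8 and 31.9 under compound 4, 64.1 and 56.0 under compound 5, and 29.9 and 40.4 under compound 6. Compound 5 samples stood above all others, and ATG2A rose 2.10-fold (log2 fold change 1.07, SE 0.16, adjusted p = 0.00102). ATG2B, its paralog, had 18.7 and 23.1 CPM under DMSO, 25.9 and 18.3 under compound 4, 32.9 and 30.5 under compound 5, and 22.6 and 25.1 under compound 6, and rose with compound 5 by 0.60 (SE 0.18, adjusted p = 0.0283).

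ATG9A, the scramblase of ATG9 vesicles, had 120 and 118 CPM under DMSO, 151 and 145 under compound 4, 188 and 165 under compound 5, and 127 and 135 under compound 6, with every treated sample above DMSO. It rose with compound 5 by 0.57 (SE 0.10, adjusted p = 0.00296). Of its 31-base words, 35.5% also occur in the gene AC068946.2, which had 49 to 111 counts per library. VMP1, a scramblase of the endoplasmic reticulum, had 181 and 172 CPM under DMSO, 217 and 248 under compound 4, 239 and 249 under compound 5, and 226 and 273 under compound 6. It rose with compounds 5 and 6 by 0.47 and 0.50 (SE 0.12 each, adjusted p = 0.0145 and 0.0416), and 0.40 with compound 4 did not pass (adjusted p = 0.0527, DESeq2 0.0221). ATG2A and ATG9A kept their calls with any 1 library left out, ATG2B only without DMSO replicate 2 (adjusted p of up to 0.193), and VMP1 in none of 4 fits with compound 5 and only without compound 6 replicate 1 with compound 6 (adjusted p of up to 0.0844 and 0.354).

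**Figure D3:**
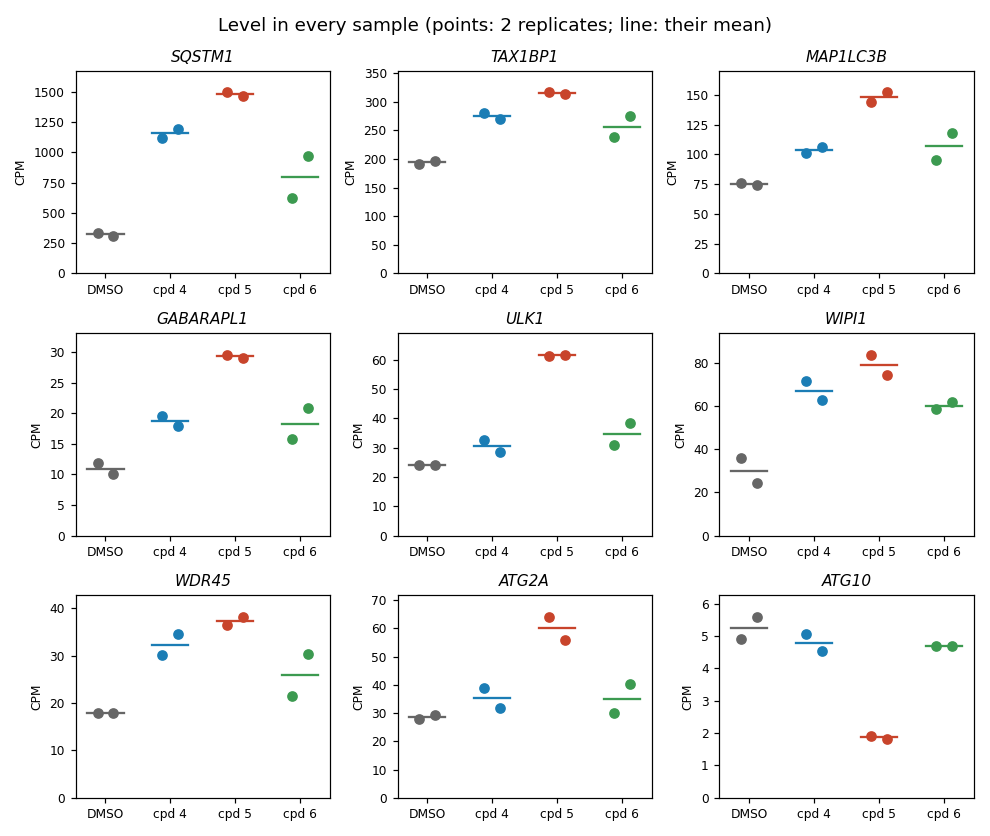
CPM of 9 autophagy genes in each of the 8 samples, with 1 point per replicate and a line at the mean of 2, on axes that start at 0. In SQSTM1, TAX1BP1, MAP1LC3B, GABARAPL1, ULK1, WIPI1, WDR45, and ATG2A the compound 5 points lie above all others, and in ATG10 they lie below, at 1.92 and 1.81 CPM.

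The conjugation machinery was the step with the only fall. ATG10, the E2-like enzyme that couples ATG12 to ATG5 (chr5:81972025-82276857, plus strand), had 4.92 and 5.59 CPM under DMSO, 5.05 and 4.52 under compound 4, 1.92 and 1.81 under compound 5, and 4.69 and 4.69 under compound 6. The compound 5 samples lay below the other 6, which ranged from 4.52 to 5.59 CPM. ATG10 fell with compound 5 to 0.355 of its DMSO level (log2 fold change -1.49, SE 0.25, adjusted p = 0.00188), and values of -0.14 and -0.17 with compounds 4 and 6 did not pass. The call held with any 1 library left out, with log2 fold changes from -1.58 to -1.37.

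Of the other genes of the ubiquitin-like systems, ATG3, ATG5, ATG7, and ATG12 did not pass with any compound. Their log2 fold changes lay between -0.15 (ATG5 with compound 4) and 0.24 (ATG3 with compound 4), so that ATG7, the shared E1-like enzyme, had -0.12, -0.11, and 0.09. ATG16L1, which positions the ATG12-ATG5 conjugate on the membrane, had 40 and 40.7 CPM under DMSO, 46.6 and 46.3 under compound 4, 57.3 and 53.5 under compound 5, and 43.2 and 51.8 under compound 6. It rose with compound 5 by 0.46 (SE 0.12, adjusted p = 0.0154), a call that was lost in each fit without 1 library (adjusted p of up to 0.0979).

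The 4 ATG4 proteases, which prime ATG8 proteins and release them from the membrane, did not move together. ATG4A had 5.51 and 5.26 CPM under DMSO, 9.58 and 8.58 under compound 4, 8.34 and 8.48 under compound 5, and 9.28 and 7.58 under compound 6. All its treated samples lay above DMSO, and it rose with compounds 4 and 5 by 0.75 (SE 0.18, adjusted p = 0.0243) and 0.64 (SE 0.19, adjusted p = 0.0262), while 0.64 with compound 6 did not pass (adjusted p = 0.0806). By DESeq2 these calls of ATG4A did not pass (adjusted p = 0.124 and 0.120). ATG4D had 29.8 and 31.1 CPM under DMSO, 38.9 and 43.0 under compound 4, 44.5 and 42.4 under compound 5, and 27.7 and 33.0 under compound 6, where the last group overlapped DMSO. It rose with compound 4 by 0.43 (SE 0.12, adjusted p = 0.0489, under the replicate block 0.0510) and with compound 5 by 0.51 (SE 0.12, adjusted p = 0.0121). The call of ATG4D with compound 4 was also lost by DESeq2 (adjusted p = 0.102) and by edgeR under upper-quartile scaling (0.0578). The same held with library size alone (0.0671) and with only the groups compared (0.0749). ATG4B had -0.03, -0.07, and -0.18, and ATG4C had -0.02, -0.37, and -0.20, none of which passed. Of the 4 calls of ATG4A and ATG4D, none held with each library left out, and the adjusted p reached 0.170 and 0.114 for ATG4A and 0.209 and 0.0866 for ATG4D. ATG4A with compound 5 was lost in each fit, ATG4A with compound 4 was kept only without compound 4 replicate 2, ATG4D with compound 4 only without compound 4 replicate 1, and ATG4D with compound 5 only without compound 5 replicate 2.

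In the ATG8 family, 1 gene of the LC3 branch and 1 of the GABARAP branch rose with every compound and the other 2 did not pass with any. MAP1LC3B, which encodes LC3B (chr16:87383995-87404779, plus strand), had 76.4 and 74.4 CPM under DMSO, 101 and 106 under compound 4, 144 and 152 under compound 5, and 95.5 and 118 under compound 6. Samples of compounds 4 and 6 overlapped, all lay above DMSO, and those of compound 5 were the highest. It rose 1.38-fold, 1.96-fold, and 1.42-fold (log2 fold changes 0.46, 0.97, and 0.50, SE 0.12 each, adjusted p = 0.0291, 3.64e-04, and 0.0399).

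GABARAPL1, a GABARAP-branch member (chr12:10212458-10223130, plus strand), had 11.9 and 10.0 CPM under DMSO, 19.5 and 17.9 under compound 4, 29.6 and 29.1 under compound 5, and 15.8 and 20.8 under compound 6, again with compound 5 the highest and compounds 4 and 6 overlapping. It rose 1.71-fold, 2.68-fold, and 1.68-fold (log2 fold changes 0.77, 1.42, and 0.75, SE 0.17, 0.16, and 0.17, adjusted p = 0.0133, 2.84e-04, and 0.0331). With compound 5 the calls of both genes held with any 1 library left out. With compound 4, MAP1LC3B kept its call only without compound 4 replicate 1 (adjusted p of up to 0.191), and GABARAPL1 lost it only without DMSO replicate 2 (adjusted p = 0.138). With compound 6, both kept it only without compound 6 replicate 1 (adjusted p of up to 0.353 and 0.342).

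GABARAP ranged from 103 to 128 CPM over the 8 samples with log2 fold changes of 0.20, -0.03, and 0.03, and GABARAPL2 from 40 to 51.6 CPM with 0.09, -0.05, and -0.03. Their 95% confidence intervals with compound 5 ran from -0.26 to 0.20 and from -0.36 to 0.26. GABARAP shares 29.7% of its 31-base words with other genes, mainly AC120057.2, which had 0 counts in 6 libraries, 43 in DMSO replicate 2, and 15 in compound 5 replicate 2. Per kilobase of the median coding transcript, the mean level in DMSO was 142 CPM for GABARAP, 63.0 CPM for GABARAPL2, 45.5 CPM for MAP1LC3B, and 17.8 CPM for GABARAPL1. With compound 5 the order became GABARAP (139 CPM per kilobase), MAP1LC3B (89.4), GABARAPL2 (60.9), and GABARAPL1 (47.6). By the longest coding transcript, each of these groups gave the same order as by the median one (66.1, 45.1, 28.1, and 4.80 CPM per kilobase in DMSO).

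Cargo receptors held the largest change. SQSTM1, which encodes p62, the receptor of ubiquitinated cargo (chr5:179806398-179838078, plus strand), had 337 and 310 CPM under DMSO, 1121 and 1193 under compound 4, 1495 and 1467 under compound 5, and 623 and 969 under compound 6. The 4 groups did not overlap, with compound 5 above compound 4, compound 4 above compound 6, and compound 6 above DMSO, and the gap between replicates was widest with compound 6. SQSTM1 rose 3.57-fold, 4.57-fold, and 2.46-fold with compounds 4, 5, and 6 (log2 fold changes 1.84, 2.19, and 1.30, SE 0.17, 0.18, and 0.17, adjusted p = 3.36e-04, 6.68e-05, and 0.00465). Leaving out any 1 library kept the calls with compounds 4 and 5, and that with compound 6 was lost only without DMSO replicate 2 (adjusted p = 0.0878). Per kilobase of its median coding transcript SQSTM1 was the most abundant receptor in every group, at 385 CPM in DMSO and 1759 CPM with compound 5. The summed level of all 40 genes lay above DMSO in each treated library, from 2355 and 2286 CPM to 3535 and 3575 (compound 4), 4283 and 4217 (compound 5), and 2853 and 3428 (compound 6). Without SQSTM1 these sums were 2018 and 1976, 2414 and 2382, 2788 and 2751, and 2230 and 2459 CPM.

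TAX1BP1, a receptor of protein aggregates, had 192 and 197 CPM under DMSO, 280 and 270 under compound 4, 316 and 314 under compound 5, and 238 and 275 under compound 6, so that no treated sample overlapped DMSO. It rose with compounds 4 and 5 by 0.50 and 0.70 (SE 0.10 each, adjusted p = 0.0111 and 9.59e-04), and 0.40 with compound 6 did not pass (adjusted p = 0.0539, DESeq2 0.0116). OPTN, a receptor of damaged mitochondria and bacteria, had 23.6 and 18.2 CPM under DMSO, 41.4 and 34.4 under compound 4, 36.1 and 25.7 under compound 5, and 24.8 and 30.8 under compound 6. Compound 4 gave its only call, a rise of 0.86 (SE 0.20, adjusted p = 0.0176), and 0.57 with compound 5 lay at the threshold (adjusted p = 0.0543, under the block 0.0490, and by DESeq2 0.0397).

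CALCOCO2, also known as NDP52, had 59.5 and 55.6 CPM under DMSO, 55.8 and 51.3 under compound 4, 77.6 and 77.1 under compound 5, and 59.7 and 67.4 under compound 6. It rose with compound 5 by 0.43 (SE 0.11, adjusted p = 0.0147), whereas compound 4 samples overlapped DMSO. NBR1, which acts together with p62, had 153 and 151 CPM under DMSO, 175 and 154 under compound 4, 194 and 189 under compound 5, and 169 and 194 under compound 6, and rose with compound 5 by 0.33 (SE 0.11, adjusted p = 0.0447, under the replicate block 0.0572). The call of TAX1BP1 with compound 5 held with any 1 library left out, and that with compound 4 was lost without DMSO replicate 1 or 2 (adjusted p of up to 0.0917). That of OPTN was lost without DMSO replicate 2 or compound 4 replicate 1 (adjusted p of up to 0.170). The calls of CALCOCO2 and NBR1 were lost in each of their 4 fits (adjusted p of up to 0.0909 and 0.168).

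Neither fusion gene passed with any compound. STX17, the SNARE of the finished autophagosome, had 20.5 and 25.1 CPM under DMSO, 19.2 and 14.3 under compound 4, 21.0 and 19.5 under compound 5, and 23.8 and 22.4 under compound 6. Both compound 4 samples lay below DMSO, with a log2 fold change of -0.45 (95% confidence interval -0.82 to -0.09, adjusted p = 0.106). EPG5, a tether between autophagosome and lysosome, ranged from 15.6 to 24.8 CPM with log2 fold changes of -0.13, 0.09, and 0.05.

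The compounds were then compared with each other in 3 pairs, at concentrations that were not matched. Compound 5 exceeded compound 4 in 7 of the 39 genes and lay below it in 1 (6.91% and 7.04% of all tested genes, 13.9% in either direction). ULK1 differed by 1.01 on the log2 scale (95% confidence interval 0.72 to 1.30, adjusted p = 0.00455), ATG2A by 0.76 (0.42 to 1.11, adjusted p = 0.0148), and GABARAPL1 by 0.65 (0.31 to 0.99, adjusted p = 0.0236). CALCOCO2 (0.53), MAP1LC3B (0.51), RB1CC1 (0.49), and ATG13 (0.39) were the other 4 that were higher, with adjusted p-values between 0.0148 and 0.0310. ATG10 was lower by a log2 difference of -1.35 (-1.91 to -0.80, adjusted p = 0.0103). For SQSTM1 the difference of 0.36 did not pass (-0.01 to 0.73, adjusted p = 0.169), and neither did that of WIPI1 at 0.24 (-0.11 to 0.59). Compounds 5 and 4 differ by the ethylidene in place of the methylene bridge and by tert-butyl in place of methyl.

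Compound 5 exceeded compound 6 in 8 genes and lay below it in 1 (4.76% and 5.16% of all tested genes, 9.91% in either direction). ULK1 (0.83), ATG13 (0.53), ATG2A (0.76), MAP1LC3B (0.47), GABARAPL1 (0.67), and ATG10 (-1.33) differed here as well, with adjusted p-values between 0.00533 and 0.0318. SQSTM1 was higher with compound 5 by 0.90 (0.52 to 1.27, adjusted p = 0.0110), ATG4D by 0.51 (adjusted p = 0.0293), and ATG9A by 0.43 (adjusted p = 0.0285). WDR45 at 0.52 did not pass (adjusted p = 0.0650, with the block 0.0483).

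Compounds 4 and 6, which differ in the tert-butyl or cyclohexyl group, gave 0 calls among the 39 genes by edgeR and 0 by DESeq2. Among all tested genes 0.0448% were called, 0.0224% in each direction (6 genes by edgeR and 74 by DESeq2). By edgeR, 6 of the 39 genes had an unadjusted p under 0.05, beside 1315 of the 13404 tested genes. The widest differences were those of SQSTM1 at 0.54 (0.17 to 0.91, adjusted p = 0.381), STX17 at -0.47 (-0.84 to -0.10, adjusted p = 0.429), OPTN at 0.44 (0.02 to 0.87, adjusted p = 0.494), and ATG4D at 0.43 (0.15 to 0.70, adjusted p = 0.346). For ATG2A the difference was 0.00 with an interval of -0.35 to 0.35, and for GABARAPL1 it was 0.02 (-0.33 to 0.37), so that differences of this size in either direction remain possible.

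These counts also moved with 1 library left out. Between compounds 5 and 4, 10 genes were called without compound 4 replicate 1, 3 without compound 4 replicate 2, and 1 without either compound 5 replicate, where the calls over all genes were 2709, 579, and 111 or 167 in place of 1869. Between compounds 5 and 6, 9 genes were called without compound 6 replicate 2, 1 without compound 6 replicate 1 or compound 5 replicate 2, and 0 without compound 5 replicate 1, where those over all genes were 1016, 211 or 278, and 143 in place of 1329. Between compounds 4 and 6 the count was 0 in each such fit.

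**Figure D4:**
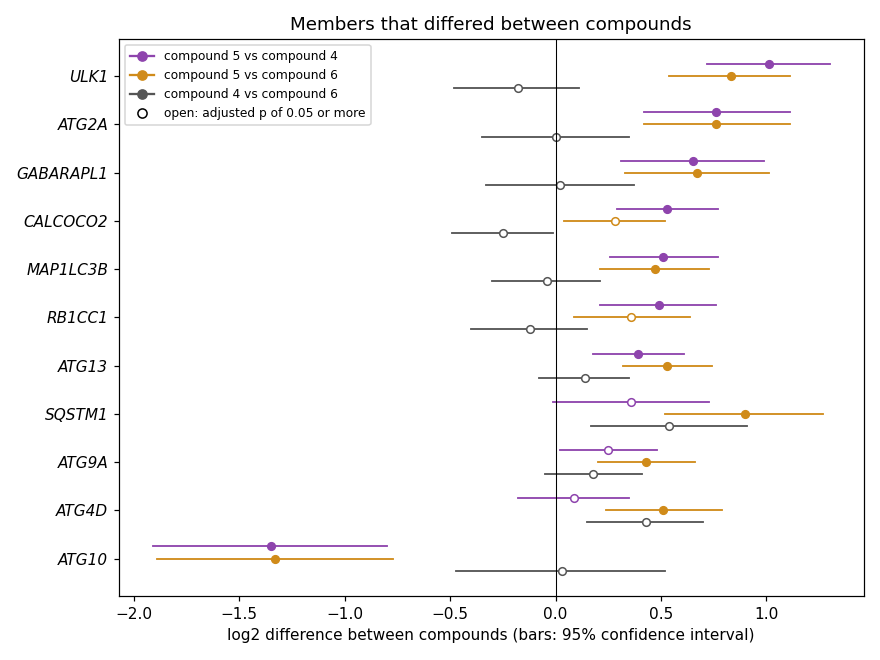
Log2 difference between compounds for the 11 autophagy genes that were called in at least 1 pair, with 95% confidence intervals, and filled points where the edgeR adjusted p was under 0.05. Compound 5 against compound 4 is purple, compound 5 against compound 6 orange, and compound 4 against compound 6 grey. The grey points, all open, lie between -0.25 and 0.54, and ATG10 lies at -1.35 and -1.33 in the comparisons of compound 5.

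Other genes of the pathway were taken from 5 lists, whose counts are to be read beside the 11.9%, 28.1%, and 4.40% of all tested genes called with compounds 4, 5, and 6. Of 16 tested further core and regulatory genes (21 listed), 2, 2, and 1 rose with compounds 4, 5, and 6, and 0 fell. BCL2L1, the BCL-XL protein that binds beclin 1, changed most with compounds 4 and 5 (log2 fold changes 0.72 and 0.93, adjusted p = 0.00186 and 2.36e-04), and SH3GLB1, a membrane-curving partner of UVRAG, was the gene that rose with compound 6 (0.47, adjusted p = 0.0289). Of 17 tested organelle receptors (20 listed), 3 rose and 1 fell with compound 4, 3 rose and 5 fell with compound 5, and 1 rose and 1 fell with compound 6. CCPG1, a receptor of the endoplasmic reticulum, was the gene that rose with compound 6 and had the largest called change with each compound, with log2 fold changes of 0.64, 1.40, and 1.02 (adjusted p = 0.0203, 2.16e-04, and 0.00759). It went from 42.2 and 37.3 CPM in DMSO to 66.0 and 58.3, 113 and 97.2, and 69.3 and 91.4 CPM. BNIP3, a mitochondrial receptor that was singled out after its values had been seen, was the gene that fell with compounds 4 and 6 and fell with compound 5 as well (log2 fold changes -0.52, -0.58, and -0.61, adjusted p = 0.0108, 0.0159, and 0.00229). Its relative BNIP3L fell with compound 5 (log2 fold change -0.78, adjusted p = 0.0165). Under the replicate block BNIP3L passed as well with compounds 4 and 6 (log2 fold changes -0.68 and -0.62, adjusted p = 0.0123 and 0.0385), whereas without the block it did not (-0.66 and -0.60, adjusted p = 0.0566 and 0.122).

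Of 13 genes of the SNARE, RAB7, and HOPS machinery, 1 rose with compound 4, 4 rose and 1 fell with compound 5, and 0 were called with compound 6. With compound 6, 1 of the 13 had an unadjusted p under 0.05 by edgeR, beside 2680 of the 13404 tested genes. VPS18, a HOPS subunit, rose with compound 4 by 0.58 (adjusted p = 0.0108), and PLEKHM1, an adaptor between RAB7, HOPS, and LC3, rose with compound 5 by 1.17 (adjusted p = 0.00217). Of 19 regulators of mTORC1 and AMPK, 2 fell with compound 4, 3 rose and 2 fell with compound 5, and 1 rose with compound 6. DEPTOR, an mTOR inhibitor, had the largest called change with compound 4 (-1.19, adjusted p = 0.0131). SESN2, the stress-induced sestrin 2 that inhibits mTORC1, had it with compounds 5 and 6 (1.53 and 0.90, adjusted p = 3.96e-04 and 0.0287). It had 22.3 and 22.9 CPM under DMSO, 27.6 and 28.2 under compound 4, 61.2 and 69.2 under compound 5, and 32.1 and 51.7 under compound 6. Its relatives in the list, SESN1 and SESN3, went the other way. SESN1 fell with compounds 4 and 5 (-0.99 and -1.25, adjusted p = 0.00919 and 0.00142), and -0.74 with compound 6 did not pass. SESN3 had -1.32, -1.51, and -1.71, none of which passed.

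Of 10 tested transcription regulators of autophagy genes (11 listed), 2, 6, and 2 rose and 0 fell. DDIT3, the stress factor CHOP, had the largest change with each compound, with 10.3 and 6.25 CPM under DMSO, 19.9 and 20.4 under compound 4, 56.7 and 56.9 under compound 5, and 13.9 and 24.6 under compound 6. No treated sample overlapped DMSO, and DDIT3 rose by log2 fold changes of 1.30, 2.79, and 1.24 (adjusted p = 0.0118, 1.09e-04, and 0.0318, the last 0.0507 under the replicate block). The block also changed the calls of ATF4 with compound 4 (0.0538 to 0.0400) and KEAP1 with compound 5 (0.0489 to 0.0557) in this list, of DDIT4 among the regulators of mTORC1 with compounds 4 (0.0723 to 0.0322) and 5 (0.0538 to 0.0271), and of TP53INP2 among the further core genes with compound 5 (0.0804 to 0.0395). These 4 are named because the block changed their calls.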

How the data were processed

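The authors checked reads with FastQC 0.12.0, quantified strand-specific libraries with Salmon 1.5.0 on GENCODE 38 (GRCh38), and summarized transcripts to genes with tximeta. The submitters' processing notes also name DESeq2 1.38.3. The deposited values are estimated counts per gene (expected counts, held as whole numbers), without normalization. They were analysed as deposited in R 4.3.3 with edgeR 4.0.16 and limma 3.58.1.

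Genes were kept by filterByExpr, scaled by TMM (factors between 0.958 and 1.04), and fitted in 1 quasi-likelihood model of the 4 groups over 8 samples. A call is a Benjamini-Hochberg adjusted p under 0.05 over 13404 genes, from edgeR unless another tool is named. CPM values use the TMM-scaled library sizes. The procedure was tested on simulated data. With 2 samples a group, the smallest two-sided p of an exact permutation test is 0.333, so none was run.

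The genes and lists were chosen with earlier results of these data known. Genes called in at least 1 comparison with DMSO were named with all values, the others by fold changes, and from each further list the called gene with the largest change per compound. Promoters of the 3 largest called rises were printed from RefSeq, while coordinates, transcript lengths, and shared 31-base words come from GENCODE 29, an older release than that of the authors. Protein sequences were not analysed here.

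Replicates of a group differed beyond counting error (chi-square per degree of freedom from 5.51 to 17.2). The replicate numbers were taken to pair the samples, since the labels give them as a day that the groups share, although a day given as a time is hard to reconcile with the stated 24 h. Deviations of same-numbered samples from their group means correlated at r = 0.160 between compounds 4 and 5 and at -0.0826 to 0.0619 in the other 5 pairs of groups. The model held no block, and values with the block are given where they change a call. The alternatives were DESeq2 1.42.0, other scalings and filters, the replicate block, only the groups compared, a threshold of 0.01, and each replicate left out in turn.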

Additional observations from a re-analysis of the deposited data

How the results depend on the processing

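None of the 38 calls against DMSO reversed under any alternative, but with compound 5 the number of genes with a positive log2 fold change went from 31 to 28 under upper-quartile scaling and to 26 by library size alone. At an adjusted p under 0.01, 3, 12, and 1 autophagy genes were called with compounds 4, 5, and 6 (591, 1809, and 92 of all tested genes), and 1 each between compound 5 and compounds 4 and 6 (279 and 282). Without a filter on low counts, 8 were called with compound 6 and 1 between compounds 4 and 6, while the calls over all genes went from 590 to 1441 and from 6 to 294. With 1 replicate left out, the counts ran from 2 to 10, 12 to 14, and 0 to 8 for compounds 4, 5, and 6, from 1 to 10 (compound 5 against 4) and from 0 to 9 (5 against 6), and stayed at 0 between compounds 4 and 6. A group then holds 1 sample, which is assumed to vary like the others. The median log2 fold change with compound 4 was 0.18 under upper-quartile scaling, 0.16 by library size alone, and 0.19 to 0.23 with 1 replicate left out. With compound 5 it was 0.49 by DESeq2, 0.48 with RLE scaling, without a filter, and with only the 2 groups compared, 0.37 under upper-quartile scaling, 0.35 by library size alone, and 0.41 to 0.44 with 1 replicate left out. With compound 6 it was 0.11 to 0.26 with 1 replicate left out. The cause of these shifts was not tested. Of the 38 calls against DMSO, 35 held by DESeq2 (which added VMP1 with compound 4, OPTN with compound 5, and TAX1BP1 with compound 6), 35 under upper-quartile scaling, 32 by library size alone, and 30 under every setting other than leaving out a replicate, which lost 72 of 152 checks. With the replicate number as a block, 35 held: ATG4D with compound 4 (0.43), WDR45B (0.28), and NBR1 (0.33) with compound 5 did not pass, and the block changed no other call of these genes beside OPTN with compound 5 and WDR45 between compounds 5 and 6, which then passed. With 2 replicates of 9472261 to 13308975 counts, shifts of the size seen in PIK3C3 or ATG14 could not be told from 0.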
